A study of Sus scrofa with 16 samples.

Results

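Interferon response genes, the antiviral genes that cells switch on after sensing interferon, were followed in the liver of 16 pigs. Of 51 listed genes, 28 had at least 1 probe that carried their symbol as its gene name or, in brackets, in its RefSeq description. The array holds 4687 named genes and 43603 probes, of which 58 belong to these 28 genes. A probe was tested if it stood well above background on 8 or more of the 16 arrays, which 30097 probes did, among them 55 probes of 26 members. The only probe named IRF8 was well above background on 4 arrays and the only probe named ISG20 on 2, so neither probe was tested. A brighter probe that mentions ISG20 in its description alone is given at the end. EIF2AK2, IRF9 and RSAD2 were reached only through a RefSeq accession, with 4 probes for these 3 genes, and they are given apart from the 26. No probe carried the name of IRF2, IRF5, IFI6, IFI44, IFI44L, IFI35, IFITM1, IFITM3, ADAR, TRIM25, PARP9, PARP14, DTX3L, XAF1, CMPK2, HERC5, HERC6, SP110, UBA7 or UBE2L6.

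The pigs came from a line with low residual feed intake (low-RFI, strain RFIneg) and a line with high residual feed intake (high-RFI, strain RFIpl). Residual feed intake is the feed an animal eats above or below what its growth and maintenance predict. There were 8 pigs per line, all at 20 kg body weight and all fed ad libitum, with 1 array per pig, and the design compares these lines. Each line is a single population, so the effect of selection and any other difference between the populations cannot be told apart. The labels give neither age nor sex.

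Interferons are secreted when a cell detects foreign nucleic acid. They bind paired receptor chains on the same and on neighbouring cells, and Janus kinases then activate STAT and IRF transcription factors, which switch on a broad set of genes. Their products degrade viral RNA, block translation, tether new virus particles or tag proteins with ISG15, a small protein related to ubiquitin. In liver these genes respond in hepatocytes as well as in resident immune cells, and in bulk tissue fewer cells of a type and less RNA per cell cannot be told apart.

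Levels are log2 processed signal relative to the 75th percentile of the same array, so a difference of 1 is a doubling. Since every probe binds with its own strength, levels are compared between pigs and never between genes. The 60-base probes behind the main results are printed as the files list them, so that each value can be traced to the sequence that measured it. They include both probes of OAS1, whose extreme pigs were seen in both, and an unnamed probe that followed MX1 closely.
MX1 probe A_72_P440896: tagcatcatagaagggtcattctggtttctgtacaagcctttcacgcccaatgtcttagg
ISG15 probe A_72_P441219: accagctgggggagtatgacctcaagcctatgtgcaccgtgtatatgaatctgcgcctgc
OAS1 probe A_72_P223657: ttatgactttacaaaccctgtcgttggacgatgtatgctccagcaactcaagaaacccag
OAS1 probe A_72_P719688: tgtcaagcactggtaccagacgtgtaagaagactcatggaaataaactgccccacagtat
DDX58 probe A_72_P223287: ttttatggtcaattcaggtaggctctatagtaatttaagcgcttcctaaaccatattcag
MX2 probe A_72_P177406: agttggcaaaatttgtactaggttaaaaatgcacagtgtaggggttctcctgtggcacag
ZBP1 probe A_72_P345118: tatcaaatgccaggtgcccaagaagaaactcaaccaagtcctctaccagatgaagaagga
IFNGR1 probe A_72_P545002: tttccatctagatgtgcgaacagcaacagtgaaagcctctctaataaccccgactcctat
Unnamed probe A_72_P012606: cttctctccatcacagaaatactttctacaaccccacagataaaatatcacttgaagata
Probes of different genes shared at most 13 bases in a row, so the genes were read by distinct sequences. Among probes of the same gene only the GBP2 pair overlapped, with 56 bases in common.

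Each of the 4 slides carried 2 pigs of either line and had its own scan. Well above background were 28576 to 31808 probes per array, except for high-RFI pig 6 with 34977, whose 75th percentile was also the lowest at 320.0 intensity units against 328 to 508. The scanner files are numbered from 1 to 8 and from 55 to 62, with 4 pigs per line in either run, and no label says what these runs stand for. Pigs 1 to 4 of both lines are in the run from 1 to 8 and pigs 5 to 8 in the other. Every slide held pigs of either line from both runs in equal number, so the runs share the same slides and scans. The 5 hepatocyte markers measured, of 6 listed, had a mean log2 level of 8.40 to 8.99 over the pigs, far above the 75th percentile of each array.

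Most of the 26 genes were high in the same few pigs. Low-RFI pig 5 had the highest level of 16 of the 26 genes, and its median deviation from the gene means was +1.27 on the log2 scale. Low-RFI pig 2 was highest in 5 genes, with a median deviation of +0.75, and high-RFI pig 5 in 3 genes, with +0.66. Low-RFI pig 6 stood at +0.47, and the lowest median deviation was -0.53 in high-RFI pig 1. Over all tested probes the same medians lay between -0.05 and +0.09, which the scaling of each array keeps near 0.

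**Figure D1:**
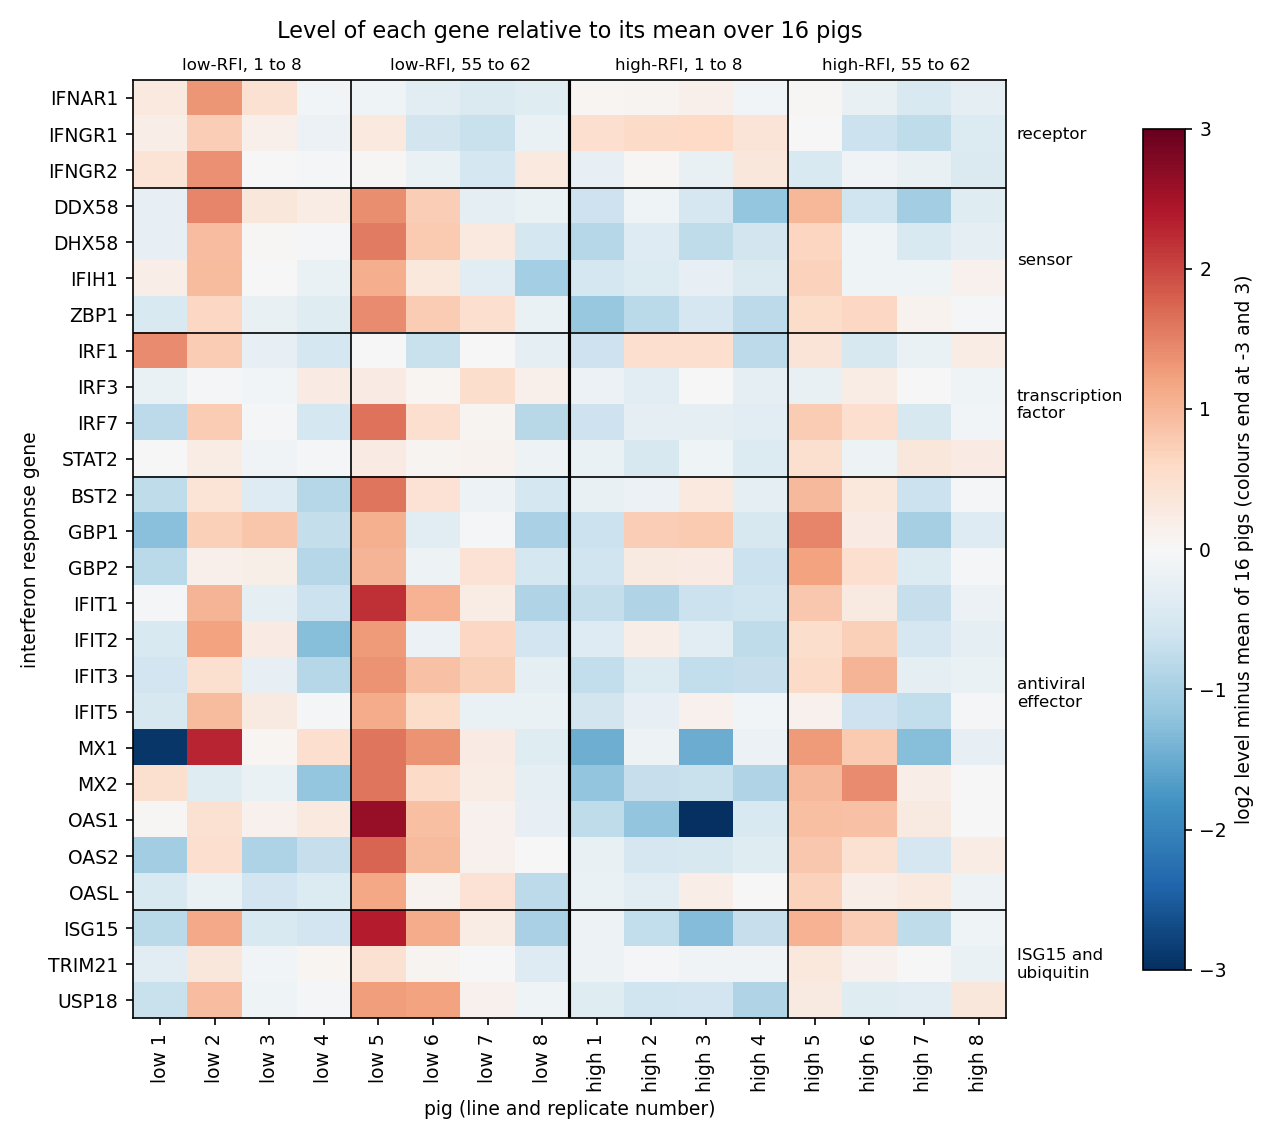
Log2 level of each of the 26 tested interferon response genes minus its mean over the 16 pigs (colour), with genes in rows by role and pigs in columns by line and run of file numbers. Low-RFI pig 5 is above the mean in 24 genes, low-RFI pig 2 and high-RFI pig 5 in 23 each, and the OAS1 cell of high-RFI pig 3 lies at -3.97, beyond the end of the colours.

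MX1, a dynamin-like GTPase that blocks viral replication and a classical reporter of interferon, had the widest range of the genes after OAS1. Its level in low-RFI pigs 1 to 8 was 2.70, 7.92, 5.67, 6.14, 7.23, 6.96, 5.86 and 5.25. In high-RFI pigs 1 to 8 it was 4.16, 5.47, 4.15, 5.44, 6.90, 6.42, 4.36 and 5.37. The lowest and the highest pig of all were both low-RFI pigs of run 1 to 8, 37.2-fold apart, and the high-RFI values lay wholly between them. Pig 1 of the low-RFI line was the lowest for each of the 5 MX1 probes, and the other 4 correlated with the printed probe at r of at least 0.98 over the 16 pigs.

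ISG15, which is conjugated to other proteins, followed the same pigs. Its level in low-RFI pigs 1 to 8 was 4.37, 6.31, 4.72, 4.60, 7.53, 6.29, 5.41 and 4.21. In high-RFI pigs 1 to 8 it was 5.02, 4.44, 3.86, 4.48, 6.21, 5.92, 4.41 and 5.04. Pigs 2, 5 and 6 of the low-RFI line and pigs 5 and 6 of the high-RFI line were high, and the lines overlapped. The range over all 16 pigs was 12.7-fold.

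OAS1, an oligoadenylate synthetase that sets off RNA decay, had an extreme pig in each line. Its level in low-RFI pigs 1 to 8 was 1.49, 1.93, 1.59, 1.77, 4.09, 2.37, 1.60 and 1.23. In high-RFI pigs 1 to 8 it was 0.71, 0.29, -2.50, 1.01, 2.37, 2.35, 1.74 and 1.49. High-RFI pig 3 was far below and low-RFI pig 5 far above all others, and the pigs between them overlapped between the lines. The other OAS1 probe, which shares no long stretch with this one, showed the same pigs at -4.20 and 1.90.

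No interferon response gene differed between the lines after adjustment, while most lay higher in low-RFI liver. With limma and Benjamini-Hochberg adjustment over all tested probes, 0 of 26 genes were called, against 3 of all probes (0.00997%). At an unadjusted p under 0.05 there were 4 of the 26, DDX58, DHX58, USP18 and IFIT5, all higher in low-RFI liver, against 5.45% of all probes. In all, the change was positive, meaning higher in low-RFI liver, for 21 of 26 genes, with a median of +0.23 and a range of -0.19 to +1.08, against a median of -0.00 over all probes, of which 49.7% were higher. These genes varied together over the pigs, with a median r of 0.56 over their 325 pairs. This count of directions and those below thus do not stand for separate results. Within the lines, the median deviation of a pig over the genes had an SD of 0.51. The count of positive changes was 20 or 21 under each of the scaling alternatives. Leaving out low-RFI pig 2 brought the median change to +0.15, leaving out low-RFI pig 5 to +0.17 and leaving out low-RFI pig 4 to +0.33.

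None of the receptor chains was called between the lines, and their differences ran from -0.06 to +0.33. IFNAR1, a chain of the type I interferon receptor, averaged -0.39 ± 0.59 (SD) over 8 low-RFI pigs and -0.57 ± 0.22 (SD) over 8 high-RFI pigs, a difference of +0.18 (SE 0.21). It ran from -0.91 to 0.85 with a median of -0.59 in low-RFI pigs, and from -0.95 to -0.34 with a median of -0.51 in high-RFI pigs, so mean and median differ in direction. Low-RFI pig 2, at 0.85, was the highest for all 3 receptor chains. IFNGR1, the ligand-binding chain of the interferon gamma receptor, differed by -0.06 (SE 0.24), and its other 3 probes gave +0.03, +0.05 and +0.28, so its direction depends on the probe. Its partner chain IFNGR2 ran from 2.11 to 4.02 with a median of 2.64 in low-RFI pigs and from 2.17 to 2.98 with a median of 2.41 in high-RFI pigs. All high-RFI pigs lay within the low-RFI range, and the difference was +0.33 (SE 0.21).

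All 4 sensors of foreign nucleic acid lay higher in low-RFI liver, with no call. DDX58, also called RIG-I, detects the ends of viral RNA. Its level in low-RFI pigs 1 to 8 was -0.80, 0.91, -0.21, -0.33, 0.84, 0.19, -0.83 and -0.76. In high-RFI pigs 1 to 8 it was -1.18, -0.69, -1.07, -1.72, 0.44, -1.14, -1.59 and -0.91. Only pig 5 of the high-RFI line exceeded the low-RFI median of -0.27, and the lines overlapped. The means were -0.12 ± 0.71 and -0.98 ± 0.66 (SD, n = 8 each), a 1.81-fold difference of +0.86 (SE 0.32, limma adjusted p = 0.718). The other DDX58 probe gave +0.70.

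DHX58, or LGP2, a regulator of DDX58 and IFIH1, ran from -0.27 to 1.82 with a median of 0.42 in low-RFI pigs. In high-RFI pigs it ran from -0.59 to 0.90 with a median of -0.16. High-RFI pig 5 was the only high-RFI pig above the low-RFI median. The difference was +0.69 (SE 0.27, limma adjusted p = 0.787). IFIH1, or MDA5, which detects long double-stranded RNA, differed by +0.26 (SE 0.26). ZBP1, a sensor of left-handed nucleic acid, differed by +0.51 (SE 0.31).

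The 4 transcription factors all had small positive differences. IRF3, the factor that starts interferon transcription downstream of the sensors, varied little, from 3.70 to 4.40 with a median of 3.99 in low-RFI pigs and from 3.56 to 4.10 with a median of 3.73 in high-RFI pigs. The ranges overlapped over most of their length. Its difference was +0.23 (SE 0.11, limma adjusted p = 0.919), and its other probe gave +0.25. IRF7, which amplifies the response, differed by +0.20 (SE 0.32), IRF1 by +0.11 (SE 0.29) and STAT2, a factor of type I interferon signalling, by +0.08 (SE 0.14). With normexp background correction 3 of these 4 were positive.

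The change was positive for 8 of the 12 antiviral effectors, and their median was +0.22. OAS1 had the largest difference on the scale used here, +1.08 (SE 0.58, limma adjusted p = 0.961), with means of 2.01 ± 0.90 (SD) over 8 low-RFI pigs and 0.93 ± 1.57 (SD) over 8 high-RFI pigs. It was +1.82 within run 1 to 8 and +0.33 within run 55 to 62. Without high-RFI pig 3 it was +0.58, and without low-RFI pig 5 it was +0.78. MX1 differed by +0.68 (SE 0.61), or +0.40 without low-RFI pig 2 and +1.15 without low-RFI pig 1.

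The IFIT genes, whose products bind viral RNA, gave positive differences in all 4 members. IFIT5 ran from 0.20 to 1.80 with a median of 0.80 in low-RFI pigs and from -0.05 to 0.82 with a median of 0.52 in high-RFI pigs. The difference of +0.50 (SE 0.22, limma adjusted p = 0.902) came with 4 low-RFI pigs above every high-RFI pig. IFIT1 ran from -1.03 to 2.05 with a median of -0.04 in low-RFI pigs and from -1.02 to 0.69 with a median of -0.75 in high-RFI pigs. Low-RFI pigs 2, 5 and 6 were above every high-RFI pig, and the difference was +0.66 (SE 0.38). IFIT2 ran from -2.51 to 0.05 with a median of -1.19 in low-RFI pigs and from -2.00 to -0.52 with a median of -1.54 in high-RFI pigs, which all lay within the low-RFI range. Its difference was +0.22 (SE 0.34), and that of IFIT3 was +0.37 (SE 0.33).

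The remaining effectors were split in direction. MX2, a relative of MX1, differed by +0.22 (SE 0.40). OAS2, another oligoadenylate synthetase, ran from 4.65 to 7.43 with a median of 5.75 in low-RFI pigs and from 5.19 to 6.50 with a median of 5.40 in high-RFI pigs. Its difference was +0.15 (SE 0.35), which turned to -0.09 without low-RFI pig 5. GBP1, a guanylate-binding protein that attacks the compartments of intracellular microbes, ran from 0.71 to 3.05 with a median of 1.78 in low-RFI pigs and from 0.97 to 3.43 with a median of 1.90 in high-RFI pigs. The ranges nearly coincided, and the difference was -0.18 (SE 0.40). Its relative GBP2 (-0.14, SE 0.29), BST2, which tethers virus particles to the cell surface (-0.06, SE 0.31), and the OAS relative OASL (-0.19, SE 0.24) also had small negative differences. The value of GBP1 turned to +0.02 without high-RFI pig 5.

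The ISG15 and ubiquitin system held USP18, ISG15 and TRIM21. USP18, the protease that removes ISG15 and dampens receptor signalling, ran from 3.11 to 5.03 with a median of 3.83 in low-RFI pigs. In high-RFI pigs it ran from 2.87 to 4.13 with a median of 3.41. Low-RFI pigs 2, 5 and 6 were above every high-RFI pig, and the rest overlapped. The difference was +0.64 (SE 0.27, limma adjusted p = 0.887), and the other USP18 probe gave +0.71. ISG15 differed by +0.51 (SE 0.46). TRIM21, a ubiquitin ligase that binds antibody-coated virus, ran from -1.69 to -0.83 with a median of -1.26 in low-RFI pigs and from -1.49 to -0.98 with a median of -1.38 in high-RFI pigs. Its 16 values spanned 1.81-fold, a narrow range, and the difference was +0.04 (SE 0.13), while its other probes gave -0.40 and -0.15.

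Several of these differences depended on 1 pig or on how array noise was handled. Leaving out low-RFI pig 5 brought ISG15 to +0.21, IFIT1 to +0.39, IFIT2 to +0.048 and MX2 to +0.010. Leaving out low-RFI pig 2 brought IFNAR1 to +0.0045, IFNGR2 to +0.16 and IFIT2 to +0.059. Array noise, the scanner's median coefficient of variation over repeated spots, was 6.02% to 7.63% over the low-RFI pigs and 7.002% to 8.76% over the high-RFI pigs. A second measure, over 26 repeated probes, overlapped between the lines, at 6.71% to 9.13% and 6.73% to 8.70%. The scanner measure served as the covariate. It lay mostly higher in high-RFI pigs, so noise and line cannot be fully told apart in that fit. With the scanner measure as a covariate OAS1 stood at +0.41, MX1 at +0.26 and ZBP1 at +0.26. DDX58 was then the largest of the members named with their range, at +0.89. The same fit gave +0.66 for IFIT2, +0.56 for IFNAR1 and +0.64 for IFNGR2, with 0 members called.

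**Figure D2:**
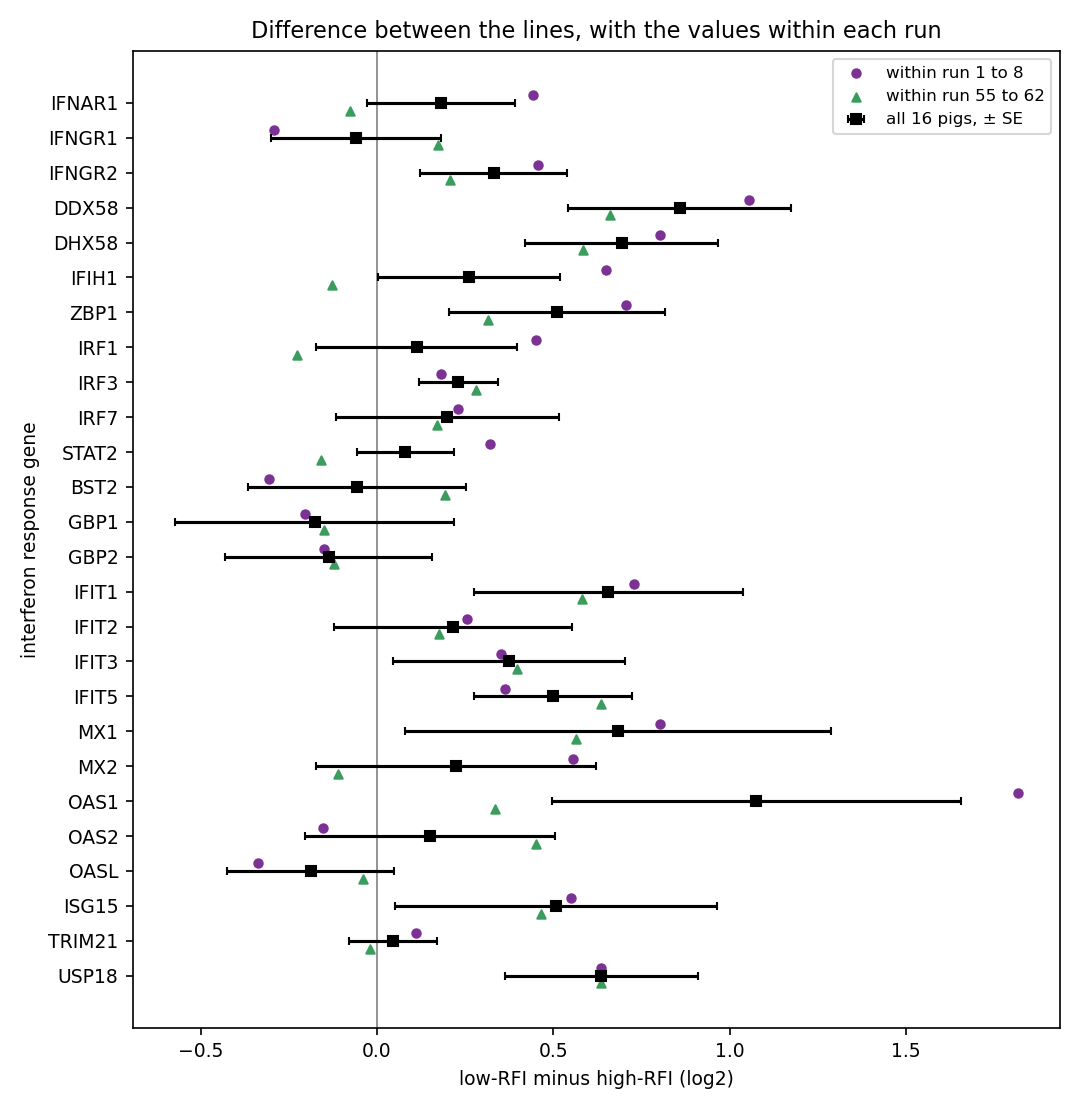
Difference between low-RFI and high-RFI liver (log2, horizontal axis) for each of the 26 tested genes. Black squares with bars give the limma change ± SE over 16 pigs, circles and triangles the change within each run of file numbers, and 21 squares lie to the right of 0, with OAS1 farthest at +1.08.

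Within the runs and slides the direction was not the same everywhere. In run 1 to 8 the line change was positive for 20 of 26 genes, with a median of +0.40. There limma called 0 of the 26 (0% of all probes), and an unadjusted p under 0.05 was reached by 5, against 4.12% of all probes. In run 55 to 62 it was positive for 17 of 26, with a median of +0.20. There limma called 0 of the 26 (0.0299% of all probes), and an unadjusted p under 0.05 was reached by 0, against 9.42% of all probes. The difference between these within-run changes was itself tested and called for 0 of 26 genes (0% of all probes), with 1 gene, STAT2, at an unadjusted p under 0.05 against 6.21% of all probes. On slides 1, 2 and 3, 25, 21 and 23 of 26 changes were positive, with medians of +0.51, +0.22 and +0.57. On slide 4 only 7 of 26 were positive, with a median of -0.16, and it holds pigs 4 and 8 of the low-RFI line and pigs 3 and 8 of the high-RFI line. OAS1 still differed by +2.01 there, since the slide holds the high-RFI pig with the lowest OAS1.

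Interferon response genes were mostly lower in run 1 to 8 than in run 55 to 62, with the receptor chains the other way. The run contrast, averaged over the lines, called 3 of 26 genes, MX2, ZBP1 and IFNGR1, against 685 of all probes (2.28%). Of these, 1 gene was higher in run 1 to 8, against 0.95% of all probes, and 2 were lower, against 1.33%. At an unadjusted p under 0.05 there were 11 of 26, against 25.4% of all probes. In all, 22 of 26 were lower in run 1 to 8, with a median of -0.48 against -0.04 over all probes. The 12 effectors, the 4 sensors and the 3 genes of the ISG15 and ubiquitin system were lower, as were 3 of the 4 factors. Among the effectors, IFIT5 at -0.003 (SE 0.23) and GBP1 at -0.015 (SE 0.42) were near 0. IFIT5 turned with the authors' table, and GBP1 and IFIT5 with median scaling. All 3 receptor chains were higher in run 1 to 8 under each of the scaling alternatives.

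Cell markers were called between the runs at near the share of all probes, and their part in these changes was not tested. Of the 41 markers tested, 1 was called, against 2.28% of all probes. It was STAB1, a scavenger receptor of liver sinusoidal endothelium, higher in run 1 to 8 with a change of +0.66 (SE 0.11, limma adjusted p = 0.018). The endothelial markers, 6 of 8 listed, had a mean log2 level of 1.05 to 1.46 over the pigs of run 1 to 8 and 0.76 to 1.21 over those of run 55 to 62. The T and NK cell markers, 12 of 14 listed, had a mean of -2.71 to -1.41 in run 1 to 8 and -2.52 to -0.39 in run 55 to 62. The largest changes among them were -1.06 for CD8B, -0.84 for CCL5 and -0.76 for CD3E, with 0 called.

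MX2 ran from -1.07 to 0.61 with a median of -0.55 in run 1 to 8 and from -0.15 to 1.73 with a median of 0.52 in run 55 to 62. The 4 high-RFI pigs of run 1 to 8 were all below the other high-RFI pigs, and the runs overlapped through low-RFI pigs. It was 2.25-fold lower in run 1 to 8, a change of -1.17 (SE 0.29, limma adjusted p = 0.049), and its other probe gave -1.003.

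ZBP1 ran from -3.70 to -1.94 with a median of -3.04 in run 1 to 8 and from -2.75 to -1.14 with a median of -2.02 in run 55 to 62. In run 1 to 8 only low-RFI pig 2 was above the lowest pig of run 55 to 62. The change was -0.93 (SE 0.22, limma adjusted p = 0.045). IFNGR1 ran from 0.56 to 1.48 with a median of 1.19 in run 1 to 8 and from -0.02 to 1.03 with a median of 0.26 in run 55 to 62. All 4 high-RFI pigs of run 1 to 8 were above every pig of run 55 to 62, and the low-RFI pigs overlapped. The change was +0.74 (SE 0.16, limma adjusted p = 0.039), and the other IFNGR1 probes gave +0.35, +0.66 and +0.35.

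IFNAR1 was higher by 0.55 (SE 0.16, limma adjusted p = 0.068) and IFNGR2 by 0.41 (SE 0.19). OAS1 was lower with a change of -1.37 (SE 0.47), IFIT3 with -0.94 (SE 0.25), OAS2 with -0.94 (SE 0.28) and ISG15 with -0.90 (SE 0.43), none of them called. Another OAS2 probe, A_72_P589381, did pass, with a change of -1.09 (limma adjusted p = 0.047). The 3 calls lay close to the threshold. Leaving out low-RFI pig 3, 6 or 7 or high-RFI pig 1, 2, 3, 4 or 7 left 0 genes called, leaving out low-RFI pig 2 or high-RFI pig 6 left 1, and normexp correction or no filter on dim probes left 0.

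**Figure D3:**
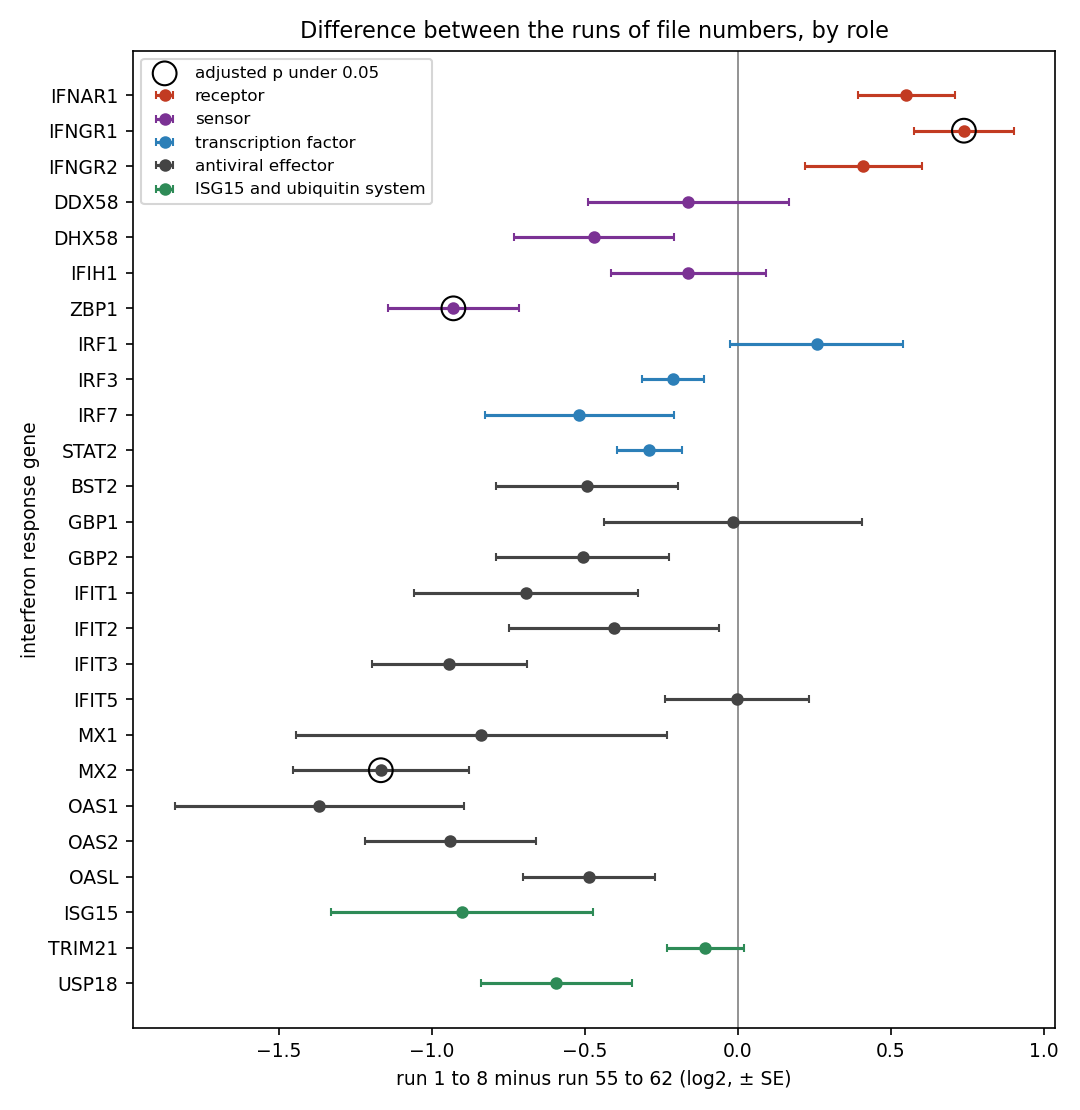
Difference between run 1 to 8 and run 55 to 62 (log2, limma change ± SE over 16 pigs, horizontal axis) for each of the 26 tested genes, coloured by role. Rings mark the 3 genes with an adjusted p under 0.05, and the 3 receptor chains lie to the right of 0. The effectors, the sensors and the ISG15 and ubiquitin genes lie to the left, with the effectors IFIT5 and GBP1 close to 0.

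**Figure D4:**
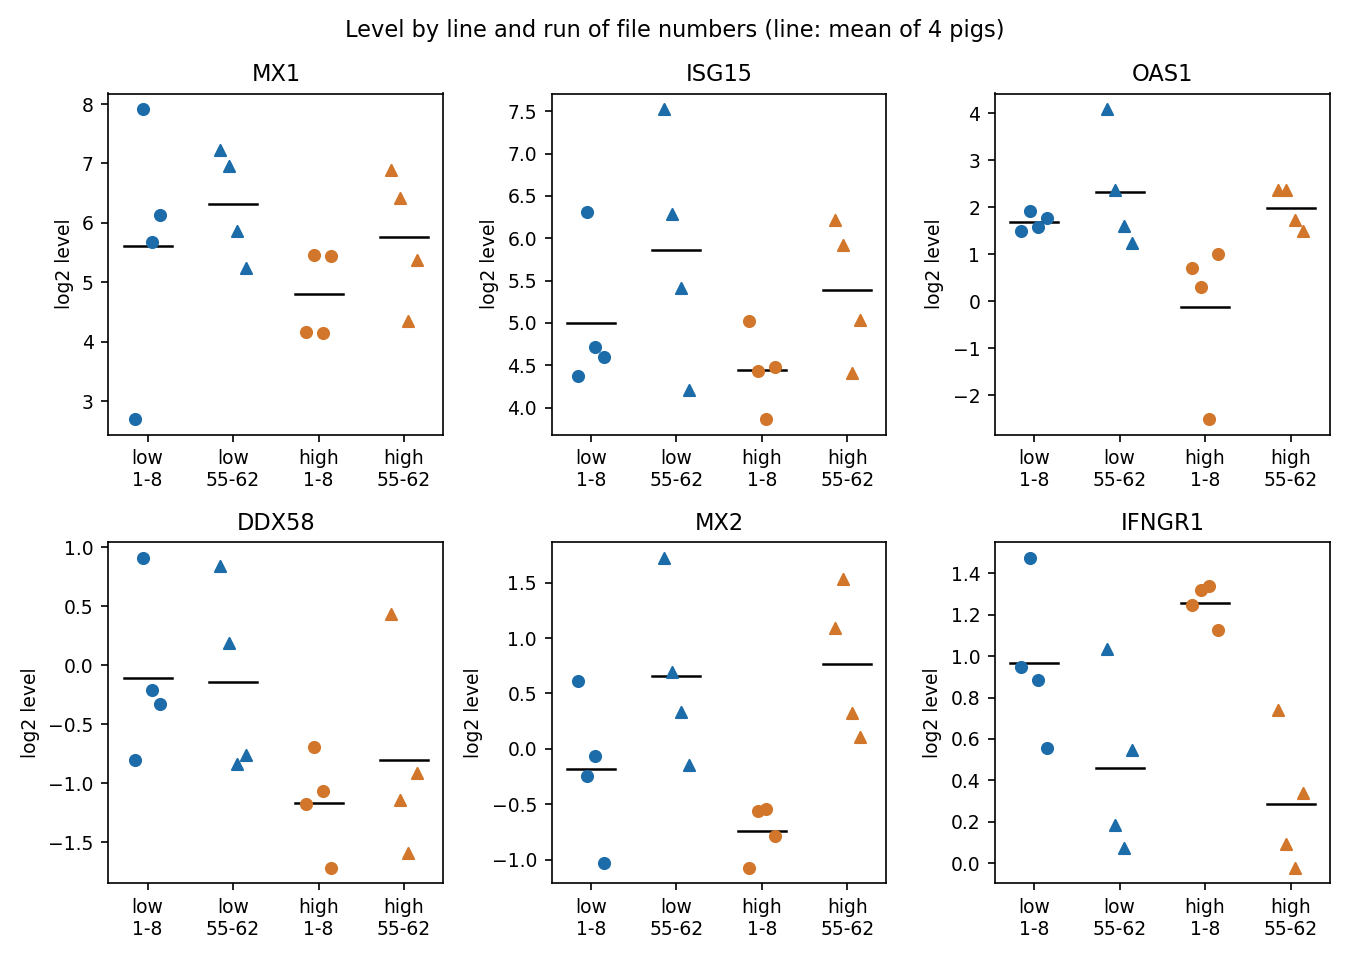
Log2 level of MX1, ISG15, OAS1, DDX58, MX2 and IFNGR1 in each pig, by line and run of file numbers, with horizontal bars for the mean of 4 pigs and vertical scales that differ between panels. The low-RFI and high-RFI points overlap in every panel, and OAS1 in high-RFI pig 3 lies at -2.50.

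Most members varied with MX1 across the pigs, while the receptor chains and IRF1 had the lowest pooled correlations. Over 16 pigs 23 of the 25 other genes correlated positively with MX1, with a median Pearson r of 0.61, against 0.02 over all probes. A regression on MX1 over all tested probes with limma called 0 of these 25 genes, against 8 probes in all (0.0266%), of which 4 are the other probes of MX1 itself. At an unadjusted p under 0.05 and a positive slope there were 17 of 25, against 2.79% of all probes. The two-sided permutation test with 100000 resamples also gave a p under 0.05 for 17 of the 25 correlations, all positive. Values of a pig share its array, so what the arrays have in common enters each correlation.

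IRF7 had the highest correlation of the 25, at r = 0.80 (permutation p = 0.00024) and Spearman rho = 0.84 (permutation p = 0.00017), with limma adjusted p = 0.156. TRIM21 stood at r = 0.79, DHX58 at 0.78, ISG15 at 0.77, USP18 at 0.74 and OAS2 at 0.73. The other TRIM21 probes were lower, at 0.57 and 0.45. OAS1 stood at r = 0.56 and rho = 0.79. IRF1 had the lowest value, r = -0.25 (permutation p = 0.359), followed by IFNGR1 at -0.06, IFNGR2 at 0.20 and IFNAR1 at 0.21. Within run 1 to 8 and run 55 to 62 taken apart, IFNAR1 stood at 0.55 and 0.74, IFNGR1 at 0.14 and 0.54, IFNGR2 at 0.56 and -0.03, and IRF1 at -0.24 and -0.04. The receptor chains thus had higher values in at least 1 run than over all pigs, though IFNGR2 was lower in run 55 to 62. Each within-run value rests on 4 pigs per line, and the reason for these differences was not tested.

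Without low-RFI pigs 1 and 2, the pigs farthest from the median of MX1, the median r was 0.67 and 21 of 25 were positive. MX2 moved from 0.33 to 0.68 and OAS1 to 0.76, while IFNAR1 turned to -0.10 and IFNGR2 to -0.02. The median r was 0.61 within the low-RFI line, 0.65 within the high-RFI line, 0.50 within run 1 to 8 and 0.74 within run 55 to 62. Among the 325 pairs of the 26 genes the median r was 0.56, and 284 were positive. The fewest partners with r above 0.5 were 0 of 25 for IRF1, 1 for IRF3 and 2 for each receptor chain.

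**Figure D5:**
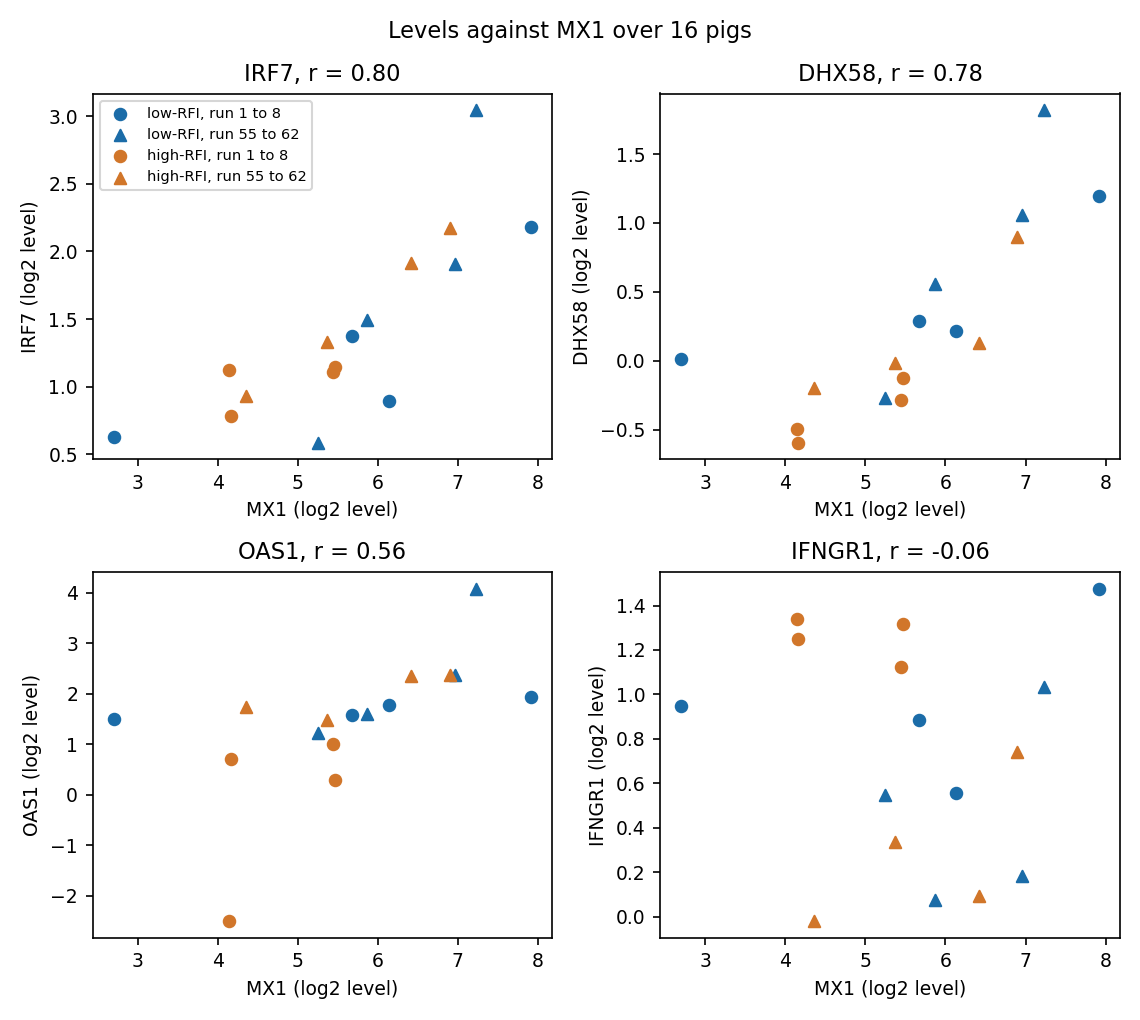
Log2 level of IRF7, DHX58, OAS1 and IFNGR1 (vertical axes) against that of MX1 (horizontal axes) in 16 pigs, by line (colour) and run of file numbers (shape). The points of IRF7 and DHX58 lie along a rising line (r = 0.80 and 0.78), those of OAS1 more loosely (r = 0.56), and those of IFNGR1 show no such line (r = -0.06).

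Among the 8 of 3935 named genes most like MX1 over the pigs were IRF9 (r = 0.83), IRF7, EIF2AK2 (0.80), TRIM21, DHX58, ISG15 and USP18. IRF9 is the DNA-binding part of a complex with STAT2, and EIF2AK2, or PKR, halts translation on binding double-stranded RNA. IRF9 differed between the lines by +0.28 (SE 0.15) and EIF2AK2 by +0.35 (SE 0.23). RSAD2, or viperin, which makes a chain-terminating nucleotide, differed by +0.78 (SE 0.58) between the lines and by -1.66 (SE 0.43, limma adjusted p = 0.055) between the runs. Its level was 3.60 in low-RFI pig 5 and -1.18 in high-RFI pig 1, the extremes of a 27.4-fold range.

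Of 90 further genes of the pathway, 46 had a probe and 43 were tested. Between the lines limma called 0 of these, against 0.00997% of all probes. An unadjusted p under 0.05 was reached by 0 of them, against 5.45% of all probes. The smallest p belonged to MAVS, the adaptor below DDX58 and IFIH1, at -0.21 (SE 0.10). Between the runs 1 of the 43 was called, against 2.28% of all probes, which is near the background. It was TAP2, a peptide transporter of antigen presentation, lower in run 1 to 8 with a change of -0.41 (SE 0.09, limma adjusted p = 0.038). Of the ligands on the array, IFNA1, IFNB1 and IFNE were not well above background on enough arrays to be tested, and IFNG differed between the lines by -0.13 (SE 0.35).

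Immune cell markers were high in some of the same pigs but not in others, and their part in the interferon values was not tested. Of 14 listed T and NK cell markers 12 were tested, and PRF1 was too dim. Their mean log2 level ran from -2.71 to -0.39 among low-RFI pigs and from -2.52 to -0.83 among high-RFI pigs. Their median deviation was +1.59 in low-RFI pig 5 and +1.15 in high-RFI pig 5 but -0.92 in low-RFI pig 2. Kupffer cell and macrophage markers, 5 of 12 listed, had a mean of 3.35 to 4.76 among low-RFI pigs and 3.73 to 4.74 among high-RFI pigs. They stood at +0.94, +0.72 and -0.39 in those 3 pigs. The 3 granulocyte markers, of 7 listed, stood at +1.38 in low-RFI pig 2 and +0.11 in low-RFI pig 5. In low-RFI pig 6 the T and NK, Kupffer and granulocyte markers stood at -0.17, -0.08 and -1.13. In high-RFI pig 1, which had the lowest interferon median, they stood at -0.16, +0.40 and -0.27. Of all 41 markers tested, limma called 0 between the lines, against 0.00997% of all probes. An unadjusted p under 0.05 was reached by 1 marker, against 5.45% of all probes.

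Some listed genes without a named probe appear in the free text of the probe descriptions, and these probes are given as the files describe them. The probe described as HERC5, the ligase that attaches ISG15, differed between the lines by +1.003 (SE 0.33, limma adjusted p = 0.649). That described as IFI44 differed by +0.49 (SE 0.29), and that described as an interferon-induced transmembrane protein by +0.52 (SE 0.43). The probe described as deltex-3-like (DTX3L) correlated with MX1 at r = 0.90 (limma adjusted p = 0.00699), and that described as ISG20 at 0.85 (limma adjusted p = 0.0249). The DTX3L and ISG20 probes differed between the lines by +0.27 (SE 0.20) and +0.59 (SE 0.40). The PARP14 probes, for a polymerase that works with DTX3L, were at -0.20 and -0.07 between the lines, with r of 0.68 and 0.79. With MX1 the IFI44 probe had r = 0.79, the HERC5 probe 0.66 and the transmembrane protein probe 0.48. The probes described as IRF5, SP110 and IRF2 had r near 0 or below. Those described as IRF5 differed between the lines by -0.03 and -0.11, with r of -0.29 and 0.03, and that described as SP110 by +0.04, with r = -0.25. The IRF2 probes were at +0.06 and -0.09, with r of -0.13 and -0.02. Between the runs a probe described as IRF2 was lower in run 1 to 8, with a change of -0.49 (limma adjusted p = 0.043). The other IRF2 probe also changed by -0.49 but was not called (limma adjusted p = 0.065).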

How the data were processed

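The liver of each of 16 pigs was measured on a 1-colour (Cy3) Agilent array. Per the file headers, Feature Extraction 10.7.3.1 quantified the spots, and the deposited processed signal, mean signal and median local background are intensities on a linear scale. The log2 values of the authors' deposited table, 27938 spots, equal log2 processed signal minus each array's median over these spots (largest difference 4.48e-08). The submitters' processing notes name R 2.10.0.

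Outlier spots (183) were left out, each array was centred on its 75th percentile (log2 scale), and repeat spots were averaged. Where a gene has several tested probes, the brightest on average stands for it. Names came from the files and a RefSeq table, in which 5458 of 5760 RefSeq probes matched. Probe positions and promoter motifs were not analysed here. Lines were compared with limma 3.58.1 in R 4.3.3, and runs and the interaction in a fit of 4 line-by-run means, adjusting p-values (Benjamini-Hochberg, 0.05) over every tested probe. The fits were tested on simulated data. Correlations with MX1 used 100000 permutations, and their adjustment over all probes in a limma regression was chosen after seeing the data. Pigs are the replicates, so p-values weigh a difference against the spread between pigs. Each run is a single group of pigs, so its p-values say nothing of how runs in general vary. Alternatives were normexp (offset 50), quantile, median and loess scaling, the authors' table, other filters, outlier spots kept, other variance models, blocks for slide, run and replicate number, array noise as a covariate, a mean over probes, and leaving out each pig. Figures used matplotlib 3.10.9.

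Genes named with values were those called, the 6 with the smallest p between the lines, the 6 with the largest SD, the receptors, and the 3 with the highest and lowest mean level. Other members are given by their change. Of the genes nearest to MX1, 1 is not reported here. The members and lists were chosen with earlier results of these data known.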

Additional observations from a re-analysis of the deposited data

Results flagged for a closer look

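In each line 1 pig stood apart in OAS1, by the gap to its nearest pig relative to the range of its line. Low-RFI pig 5 was at 4.09 on the log2 scale against 2.37 for the next pig. High-RFI pig 3 was at -2.50 against 0.29 for the next. Of 58 groups of 8 pigs checked, over the 26 genes and the 3 matched by accession, 2 stood apart this way, and chance alone gives about 1 group in 20. Low-RFI pig 5 was also the highest in 15 further genes, whereas high-RFI pig 3 was the lowest in OAS1 and 1 further gene.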

How the results depend on the processing

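The count of genes called between the lines stayed at 0 under 16 alternatives and without each pig, and that of the interaction under 10. The median change over the genes was 0.21 to 0.32 under the alternatives and 0.15 to 0.33 without each pig. The run contrast called 0 genes with normexp, 0 with no filter, 7 with array weights, and 0 to 3 without each pig. The count correlated with MX1 was 1 with normexp and 0 to 1 without each pig. IFNGR1 turned to +0.38 and TRIM21 to -0.058 between the lines with array noise as a covariate, and to +0.075 and -0.17 with the mean over probes. Without each pig the line change was -0.17 to 0.032 for IFNGR1, -0.34 to 0.020 for GBP1, -0.088 to 0.31 for OAS2 and -0.019 to 0.10 for TRIM21. With the replicate number as a block, 0 genes were called between the lines and the median was 0.23. Same-numbered pigs correlated at 0.05 to 0.40 in their deviations, 2 of the 8 pairs under 0.1, and 5 of 8 best with their own number. Only the line means were taken out first, and same-numbered pigs are in the same run, so what a run shares enters these correlations. They therefore cannot tell pairing from run. No label gives a shared litter, so the block is only an alternative. The causes were not tested. The number of arrays limits the precision, and the probes named IRF8 and ISG20 were too dim to compare.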

Other observations

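Values in this part were chosen after they were seen. The probe nearest to MX1 of all that carry no gene name, A_72_P012606, had r = 0.98 with MX1 over 16 pigs (limma adjusted p = 1.77e-08) and shares at most 7 bases in a row with the MX1 probes. A further unnamed probe, A_72_P706998, had r = 0.90 (limma adjusted p = 0.00113).

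The IRF3 probes went opposite ways between the runs, at -0.21 and +0.17, while both were higher in low-RFI liver. MX1 was low in low-RFI pig 1 (2.92 below its mean on the log2 scale) in a pig whose IRF1 was the highest of all, 1.42 above its mean.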
